A study of Mus musculus with 32 samples.

Results

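Whole lumbar spinal cord of mice was compared between a late stage after fracture and the uninjured state. The 6 libraries were chosen by their titles: the 4 Input libraries at 5 or 7 weeks after fracture and the 2 Input libraries without injury, out of 32 libraries in the series. Each sex gave 1 Input library at each time. Input is RNA of homogenized lumbar cord from all cell types, taken beside a pull-down (Trap) of tagged astrocyte ribosomes. All mice, the uninjured ones included, carried Aldhl1l-CreER;Rpl22-HA as the labels spell it, a tamoxifen-inducible Cre driven in astrocytes and a Cre-dependent HA tag on the ribosomal protein Rpl22. The treatments were no fracture and fracture, the latter given by the series as a model of complex regional pain syndrome. The labels give neither the age of the mice nor whether animals were pooled, and do not tie each library to its own animal. The p-values therefore reflect the scatter among libraries, which may be technical. The question of the series was how the cord and its astrocytes differ in acute and in chronic pain.

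As background, the dorsal horn of the lumbar cord receives the pain fibres of the hindlimb, and its neurons make opioid peptides, substance P, somatostatin, galanin and neuropeptide Y. Nerve injury is known to switch on genes such as Atf3, Sprr1a, Gal and Gap43 in the sensory and motor neurons whose axons are cut. Expression in whole tissue mixes neurons, glia, vessels, meninges and whatever adheres to the cord, so fewer cells of a type and less RNA per cell cannot be told apart here.

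The 6 libraries held 17981112 to 21970655 estimated counts, 4.06% to 6.14% of them from mitochondrially encoded genes. Marker lists were as a cord would give: summed over its list, the level was 15605 to 17364 CPM (counts scaled by library size) for neurons, 12453 to 13309 for astrocytes and 24672 to 27067 for oligodendrocytes, against 181 to 237 for Schwann cells, 10.3 to 14.9 for primary afferents and 244 to 417 for blood. The Y-linked helicase gene Ddx3y was at 30.4 to 38.6 CPM in the 3 male libraries and at most 0.605 in the 3 female ones. The submitters' names of the male Input libraries share a prefix that no female one has. Sex and that naming series cannot be told apart here. A pair of features touches the results. Genes rich in GC were higher in male than in female libraries, and the female uninjured library was the most extreme of the female ones (plot of levels by GC content). In that library glucocorticoid-responsive genes were also high, and the female library at 7 weeks held the Schwann cell gene Prx at 5.97 CPM, against at most 0.708 in the other 5.

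**Figure D1:**
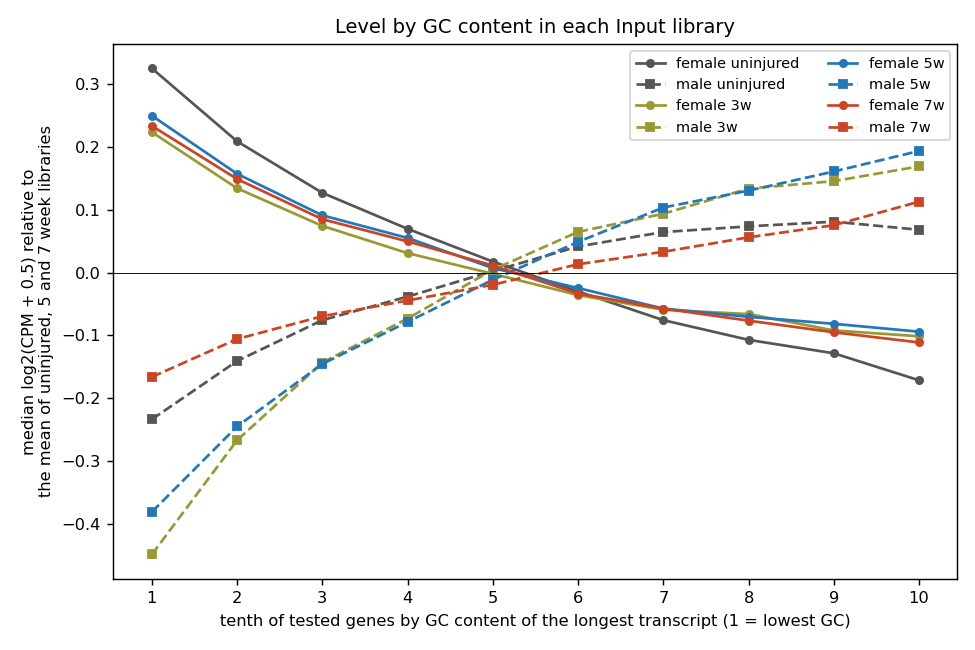
Median log2(CPM + 0.5) of the tested genes in 10 classes of GC content (horizontal axis), relative to the mean of the 6 uninjured, 5 and 7 week libraries (vertical axis), with 1 line per Input library. Female libraries fall from left to right and male libraries rise. In the class lowest in GC the female uninjured library is at 0.33, the male 5 week library at -0.38 and the male 3 week library at -0.45.

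The first comparison set the 4 late libraries against the 2 uninjured ones, with sex as an additive term. edgeR called 17 of 16399 genes at an adjusted p under 0.05, which is 0.104% of those tested, 15 higher (0.0915%) and 2 lower (0.0122%). The genes were of mixed function. Leading were the mitochondrial genes Tmem160 and Glrx5, and beside them stood the transcription factor genes Dbp and Jund, the membrane traffic genes Vapa and Arf6, the neuropeptide precursor gene Vgf and the adhesion gene Tns3, which was lower. Changes other than those of low-count genes were within 1 unit on the log2 scale. At an unadjusted p under 0.05 stood 624 genes higher (3.81%) and 614 lower (3.74%), and of all genes tested 48.5% were above 0 and 51.5% below it, with a median of -0.005. The median GC content was 55.9% for these higher genes and 46.3% for the lower ones, against 49.7% for all tested. Over 14524 genes with a mean of at least 1 CPM, the late difference was itself correlated with GC content (Spearman 0.324). DESeq2 called 36 genes (26 higher, 10 lower).

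Tmem160 encodes a membrane protein of mitochondria and lies on chromosome 7 at 16452779 to 16455494 (GRCm38, plus strand). It was at 15 CPM in the female and 15.1 in the male uninjured library. At 5 weeks it was at 24.9 and 30.5 CPM in the female and male library, and at 7 weeks at 27.0 and 34.9. All 4 late libraries lay above both uninjured ones, whose mean was 15.1 ± 0.0304 CPM (SD, n = 2), with a late mean of 29.3 ± 4.40 (SD, n = 4). Tmem160 rose by 0.95 ± 0.106 on the log2 scale (edgeR, adjusted p = 0.00138), by 0.87 ± 0.116 at 5 weeks (adjusted p = 0.00318) and by 1.04 ± 0.115 at 7 weeks (adjusted p = 0.000381), where ± is the standard error of the fit. It stayed called without any 1 of the 6 libraries. In the astrocyte pull-down the gene was at 12.7 to 31.7 CPM in 6 uninjured and 10.9 to 46.0 in 12 late libraries, and the late difference was larger in Input by 1.04 ± 0.524, which edgeR did not call (adjusted p = 1).

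Glrx5 encodes a glutaredoxin of mitochondrial iron-sulfur cluster assembly, on chromosome 12 at 105032688 to 105042906. Its levels were 69.7 and 73.9 CPM without injury, 95.3 and 121 at 5 weeks, and 92.5 and 110 at 7 weeks, female first. The groups did not overlap, and Glrx5 rose by 0.54 ± 0.0672 (edgeR, adjusted p = 0.00337), by 0.58 at 5 weeks and by 0.49 at 7 weeks, called at both. Without the male uninjured library the difference was 0.43 and was not called (adjusted p = 0.0934).

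The sequences at the start sites of these 2 leading genes are shown for comparison with those of 2 genes treated further on, Sst and Sgk1. Each window holds 250 bases before to 50 after the RefSeq start (GRCm38.p6), 5′ to 3′ on the gene's strand: Tmem160 at chr7:16452529-16452828 (plus), Glrx5 at chr12:105032368-105032667 (plus), Sst at chr16:23890795-23891094 (minus) and Sgk1 at chr10:21993640-21993939 (plus). Capitals mark any match, on either strand, to a cAMP response element (TGACGTCA, in 1.79% of 32851 such windows of all genes), an E-box (CACGTG, 7.15%), the palindromic glucocorticoid response element (0.00913%), an Egr site (GCGTGGGCG, 0.612%) or a heat shock element (0.603%).
Tmem160: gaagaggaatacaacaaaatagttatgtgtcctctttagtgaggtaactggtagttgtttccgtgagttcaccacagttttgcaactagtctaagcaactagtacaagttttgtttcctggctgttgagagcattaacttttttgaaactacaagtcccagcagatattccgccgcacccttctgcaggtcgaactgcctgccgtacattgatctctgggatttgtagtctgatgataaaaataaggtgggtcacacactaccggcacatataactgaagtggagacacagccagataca
Glrx5: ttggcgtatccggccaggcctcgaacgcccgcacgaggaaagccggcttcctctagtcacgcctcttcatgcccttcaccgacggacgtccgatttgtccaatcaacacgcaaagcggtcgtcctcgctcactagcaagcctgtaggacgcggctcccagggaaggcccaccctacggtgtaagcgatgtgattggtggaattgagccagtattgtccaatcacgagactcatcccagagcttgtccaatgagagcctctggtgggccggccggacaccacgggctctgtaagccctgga
Sst: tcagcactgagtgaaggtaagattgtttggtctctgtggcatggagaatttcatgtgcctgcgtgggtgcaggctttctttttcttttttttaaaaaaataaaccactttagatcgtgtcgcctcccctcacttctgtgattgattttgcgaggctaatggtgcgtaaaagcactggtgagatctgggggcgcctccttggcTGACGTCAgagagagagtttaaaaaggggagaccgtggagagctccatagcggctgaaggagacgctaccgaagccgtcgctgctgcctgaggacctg
Sgk1: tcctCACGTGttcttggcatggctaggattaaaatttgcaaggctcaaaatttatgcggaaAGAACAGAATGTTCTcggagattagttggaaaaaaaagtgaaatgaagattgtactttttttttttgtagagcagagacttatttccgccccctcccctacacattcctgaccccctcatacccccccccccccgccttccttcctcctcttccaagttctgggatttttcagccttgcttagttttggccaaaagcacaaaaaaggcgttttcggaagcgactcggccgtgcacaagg
The Tmem160 and Glrx5 windows held none of these letters, Sst held the cAMP response element, and this start of Sgk1 held both an E-box and the glucocorticoid element. Of 19 dorsal horn neuropeptide genes with such a window, 2 held the cAMP response element. Of 18 glucocorticoid response genes with a window, 1 held the glucocorticoid element. A match is a description of the sequence only.

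Pink1, the kinase that marks damaged mitochondria for removal, was at 467 and 527 CPM without injury, 559 and 672 at 5 weeks, and 557 and 627 at 7 weeks. It rose by 0.28 ± 0.0461 (edgeR, adjusted p = 0.0199), called at 5 weeks (0.31) and at 0.25 without a call at 7 weeks. Pink1 stands outside the rule for named genes and was added after its value was seen. The wider mitochondrial lists held no call: the median was 0.02 over 73 nuclear oxidative phosphorylation genes, -0.02 over 32 tricarboxylic acid cycle and pyruvate genes, -0.02 over 28 fatty acid oxidation genes and -0.04 over 13 mitochondrially encoded genes. At an unadjusted p under 0.05 these lists held 1, 1, 3 and 0 genes.

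Among transcription factors, Dbp, an output gene of the circadian clock, was at 28.4 and 41.6 CPM without injury, 41.9 and 58.4 at 5 weeks, and 40.6 and 61.5 at 7 weeks. Males were above females throughout, so the groups overlapped although each late library exceeded the uninjured one of its sex, and the difference was 0.53 ± 0.0719 (edgeR, adjusted p = 0.00501). Dbp was the 1 called gene of 19 clock genes, whose median was 0.00. The next was the clock repressor Bhlhe41, at 0.26 (adjusted p = 0.197), and Per1 was at -0.26 (adjusted p = 0.432).

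Jund, an AP-1 subunit gene, rose by 0.54 ± 0.0748 (edgeR, adjusted p = 0.00501), from 44.4 and 60.7 CPM to 71.6 and 76.7 at 5 weeks and 70.4 and 85.9 at 7 weeks. A model listed as ENSMUSG00000110974.1 carries the same counts as Jund in every library, so these 2 calls are 1 measurement. Of 27 immediate early genes tested, Jund was the 1 called. The others had no common direction: Egr3, an activity-induced factor, was at -0.65 and the AP-1 gene Fosl2 at -0.61, Ier5 was at 0.44, and the list median was -0.04. Aes, a corepressor of the Groucho family, rose by 0.34 ± 0.0491 (adjusted p = 0.00553), from 390 and 448 CPM to 472, 565, 488 and 610.

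Vapa, a tether of the endoplasmic reticulum to other membranes, was at 75.4 and 62.6 CPM without injury and at 85.1 to 95.6 in the late libraries, a difference of 0.39 ± 0.0612 (edgeR, adjusted p = 0.0149). Arf6, a small GTPase of endosome recycling, was at 21.6 and 22.4 CPM and then at 32.7, 32.7, 32.7 and 43.3, with the male library at 7 weeks highest. Its difference was 0.68 ± 0.107 (adjusted p = 0.0196). Inafm1 rose by 0.52 (adjusted p = 0.0199), from 31.3 and 29.5 CPM to between 38.5 and 45.8. The translation initiation factor gene Eif3f rose by 0.34 (adjusted p = 0.0309) and the RNA-binding protein gene Hnrnpab by 0.29 (adjusted p = 0.0326), and neither overlapped between the groups.

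Tns3, the focal adhesion gene tensin 3, was the named gene that fell. It was at 211 and 177 CPM without injury, 161 and 156 at 5 weeks, and 160 and 139 at 7 weeks, female first, with no overlap. Tns3 fell by 0.33 ± 0.0569 on the log2 scale (edgeR, adjusted p = 0.0276), called at 7 weeks (-0.37) and not at 5 weeks (-0.29, adjusted p = 0.12). At 3 weeks it was at 133 and 127 CPM, lower than in the late libraries. Lower genes that did not pass included Errfi1, an inhibitor of EGF receptor signalling (-0.38, adjusted p = 0.052), Bcl6, a transcriptional repressor (-0.43, 0.0656), the chaperone Hspa5 (-0.22, 0.0942) and the methionine adenosyltransferase Mat2a, whose counts are the same as those of a second model.

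The remaining calls rest on few counts. Gp1bb, a platelet receptor subunit, had 6 and 0 counts without injury and 39, 32, 21 and 32 in the late libraries (female and male at 5 weeks, then at 7 weeks). Its exons overlap those of Sept5 on the same strand, a gene at 216 CPM, so its reads are uncertain. The predicted gene Gm6565 had 0 counts in both uninjured libraries and in both at 3 weeks, and 36, 39, 73 and 36 in the late ones. Another predicted gene, Gm42791, had 16 and 39 counts without injury and 0, 0, 0 and 2 late.

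**Figure D2:**
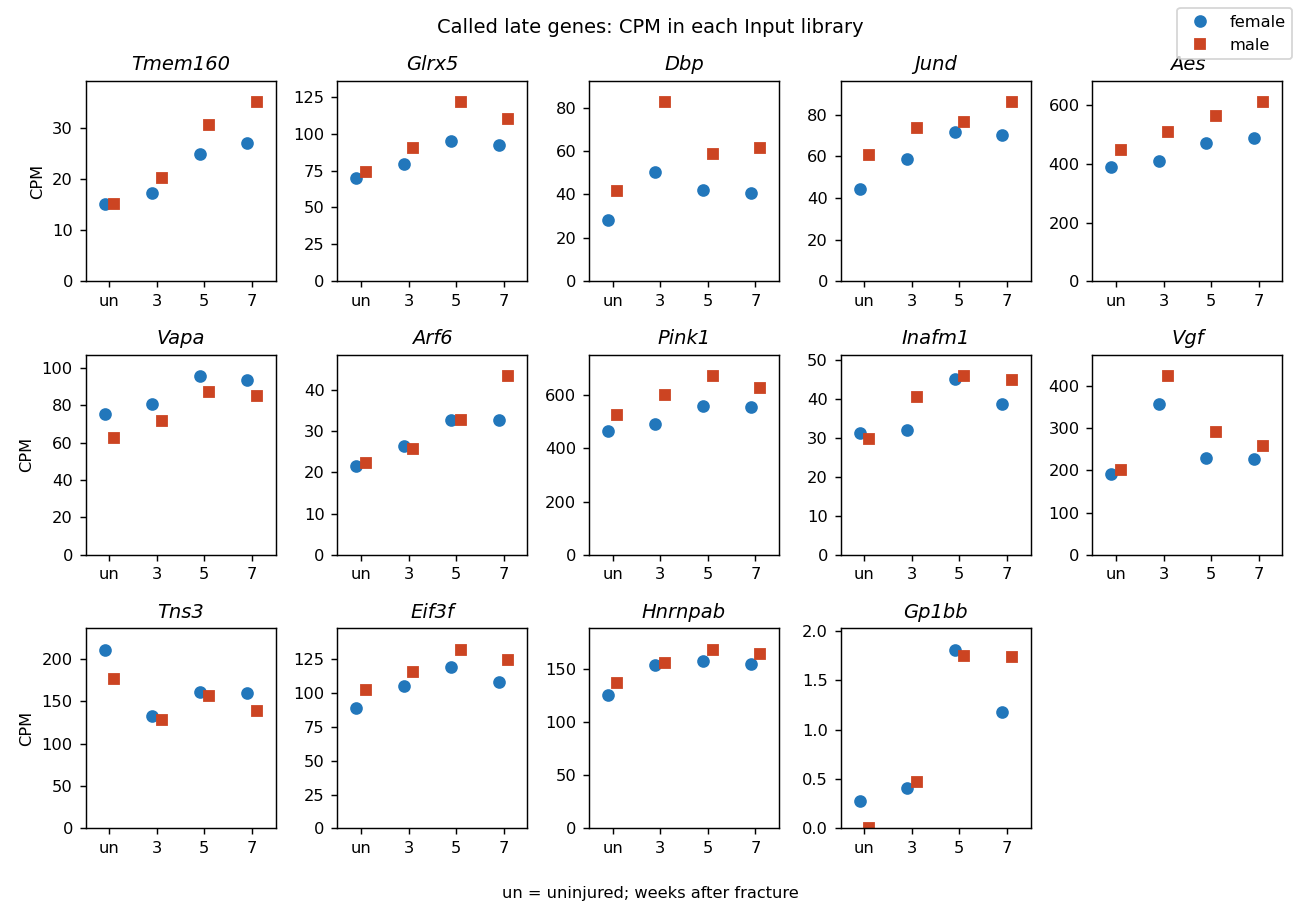
CPM (vertical axes, from 0) of the 14 called genes that are not predicted models, in each of the 8 Input libraries by state (horizontal axes), circles for females and squares for males. Late levels of Tmem160 lie between 24.9 and 34.9 CPM, above 15.1 without injury, and Tns3 is the 1 gene with its highest level without injury.

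**Figure D3:**
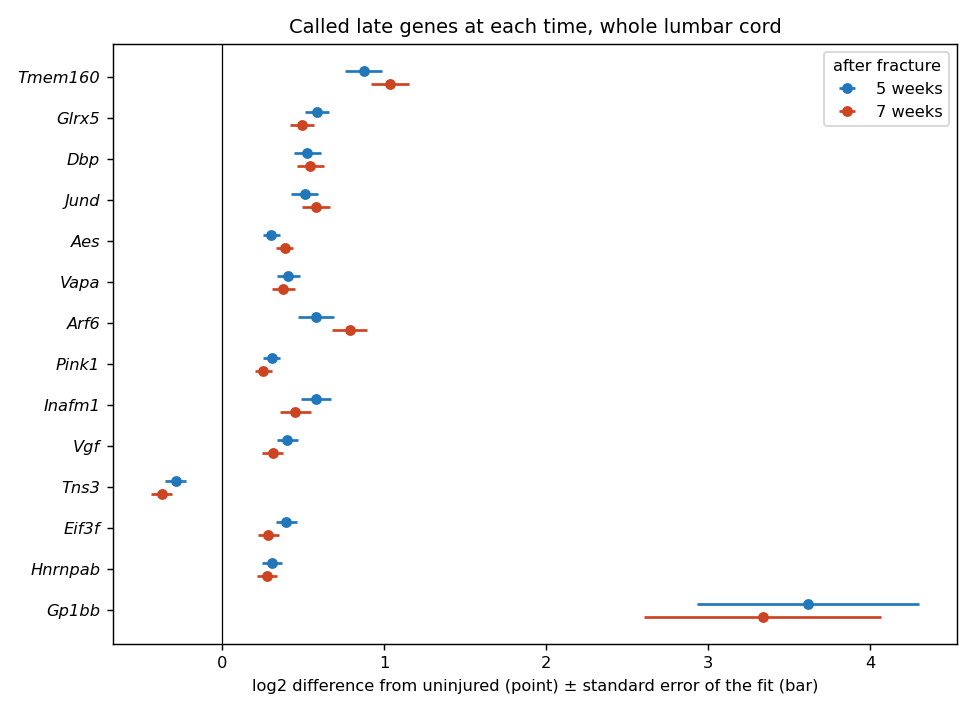
Differences from uninjured on the log2 scale (horizontal axis) for the same 14 genes at 5 weeks and at 7 weeks, with bars for the standard error of the fit. Tmem160 is at 0.87 and 1.04, and Tns3 is the 1 gene below 0 at both times.

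The calls depended on which library was left out. Without the female uninjured library 6 genes were called, 2 of them among the 17, and without the male uninjured library 39 (6 higher, 33 lower), 3 of them among the 17. Without the female library at 7 weeks 11 were called, 8 of them shared, without the male one at 5 weeks 90 and without the male one at 7 weeks 231, each with all 17. Vapa, Arf6, Pink1, Eif3f, Hnrnpab, Tns3 and Vgf were called in these last 2 fits and in no other of the 6. Aes and Inafm1 stayed called in 3 of the 6. Dropping the sex term left 0 calls by edgeR and 299 genes with an unadjusted p under 0.05. The GC content of the 14 called higher genes with a value had a median of 59.5%, against 49.7% for all tested genes. With GC content as an offset, an alternative added after seeing the data, 25 genes were called (18 higher, 7 lower), 13 of them among the 17. In that fit Tmem160 was at 0.81. Not called there were Arf6 at 0.61, near its 0.68 without the offset (adjusted p = 0.0954), Vgf at 0.22 (0.085) and Jund at 0.35 (0.153).

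The times were then taken apart. Both use the same uninjured libraries, so their agreement is not a result of its own. At 5 weeks 20 genes were called (0.122%), 16 higher (0.0976%) and 4 lower (0.0244%), or 11 higher and 7 lower with the GC offset, and at 7 weeks 43 (0.262%), 35 higher (0.213%) and 8 lower (0.0488%). At 7 weeks the calls included a block of skeletal muscle genes, coding for contractile and calcium-handling proteins of fast fibres. Of the 12 genes of the muscle list 8 were called higher at 7 weeks and none lower, against 0 at 5 weeks.

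Acta1, skeletal alpha-actin, was at 53.1 and 46.9 CPM without injury, 62.5 and 63.7 at 5 weeks, and 88.2 and 75.2 at 7 weeks. Both 7 week libraries stood above the others, and Acta1 rose by 0.71 ± 0.0807 there (edgeR, adjusted p = 0.000422), with 0.34 (adjusted p = 0.192) at 5 weeks. Ckm, the muscle creatine kinase, followed the same order, at 39.5 and 35.1, then 46.3 and 45.5, then 63.3 and 56.9 CPM, and rose by 0.69 at 7 weeks (adjusted p = 0.00057). Mylpf, a fast myosin light chain, rose by 0.88 at 7 weeks (adjusted p = 0.0025), Myl1 by 0.73, Tnnt3 by 0.57, Tnni2 by 0.55, Atp2a1, the calcium pump of fast muscle, by 0.45 and Myh4 by 0.43. The troponin gene Tnnc2, outside the list, rose by 0.63.

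Direct comparison of 7 with 5 weeks called none of these muscle genes, with Acta1 at 0.37 (edgeR, adjusted p = 0.211) and Ckm at 0.39 (adjusted p = 0.18). Over both late times all 12 were above 0, with a median of 0.36 (0.22 at 5 weeks and 0.50 at 7 weeks), 10 without overlap of the groups (3.98% of all genes were higher without overlap), 8 with an unadjusted p under 0.05, and 0 called by edgeR (DESeq2 called 3). The summed level of the list was 537 and 572 CPM at its lowest and highest without injury, 612 to 666 at 5 weeks, 712 to 789 at 7 weeks and 572 to 643 at 3 weeks. Acta1 and Ckm were called at 7 weeks whichever library was left out, but the number of muscle genes called fell to 2 of 12 without the female library at 7 weeks, to 2 without the male uninjured library and to 3 without the female uninjured one. The astrocyte pull-down held these transcripts too, with Acta1 at 48.8 to 62.8 CPM in uninjured and 43.1 to 73.3 in late libraries. Whether muscle tissue adhered to the cord was not tested.

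**Figure D4:**
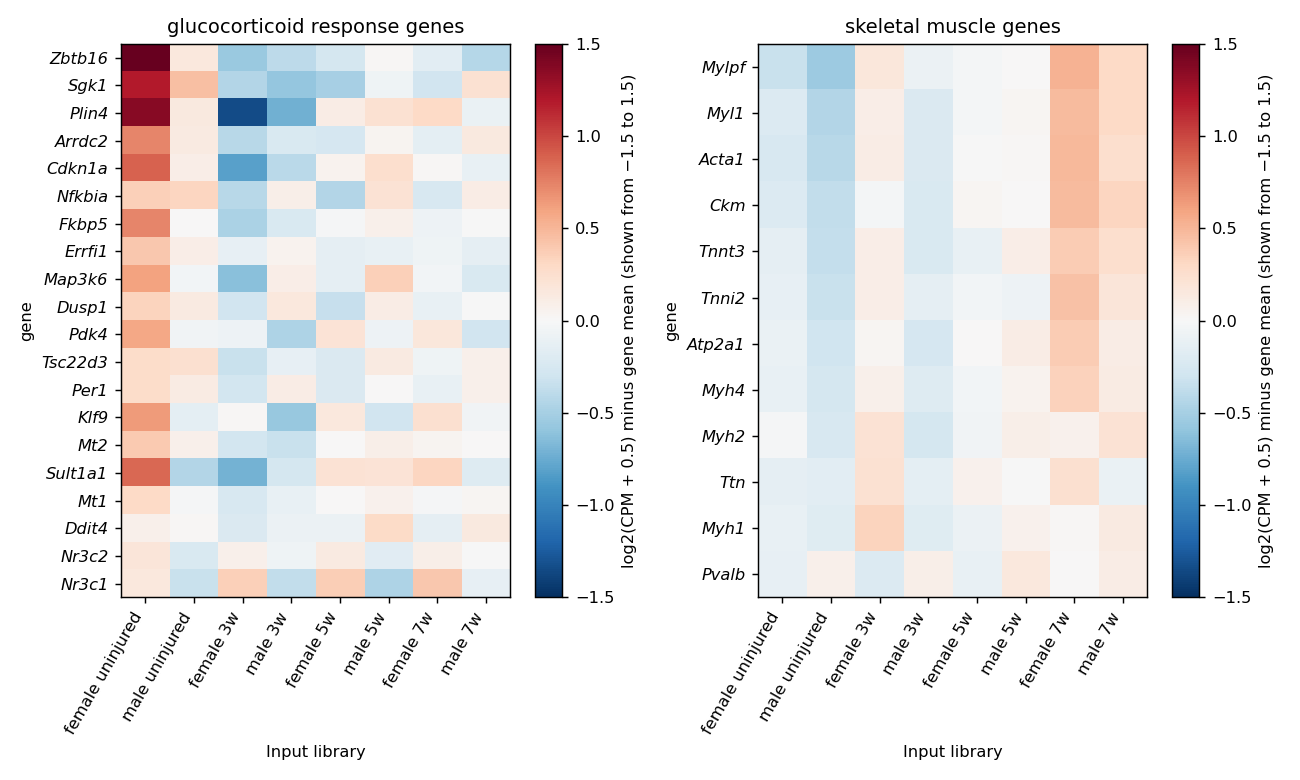
Level of each tested gene of the glucocorticoid response list (left) and the skeletal muscle list (right) in the 8 Input libraries (columns), as log2(CPM + 0.5) minus the gene's mean, from -1.5 (blue) to 1.5 (red). The female uninjured library is the highest for Sgk1, Zbtb16, Fkbp5 and Plin4, and both 7 week libraries are the highest for Acta1 and Ckm.

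Other calls at 1 time were single genes. H1fx, a linker histone, was at 7.96 and 8.91 CPM without injury, 13 and 15.8 at 5 weeks, and 15.5 and 23.7 at 7 weeks, and rose by 1.21 ± 0.145 at 7 weeks (edgeR, adjusted p = 0.00057). Its difference over both times was 1.00 (adjusted p = 0.0656). Coq8a, a kinase-like protein of coenzyme Q synthesis, was at 16.0 and 22.5 CPM without injury and 18.1 and 20.4 at 5 weeks, and then at 8.84 and 7.22. Both 7 week libraries lay below all others, and Coq8a fell by 1.26 ± 0.164 at 7 weeks (adjusted p = 0.00148) and by 1.26 against 5 weeks (adjusted p = 0.00231). Its exons overlap Cdc42bpa on the other strand, a gene at 266 CPM. Without the male uninjured library Coq8a was not called at 7 weeks (adjusted p = 0.0557).

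Ptgds, the prostaglandin D synthase of meninges and oligodendrocytes, fell by 0.30 at 7 weeks (edgeR, adjusted p = 0.0499). Its levels were 472 and 486 CPM without injury, 379 and 469 at 5 weeks, and 375 and 402 at 7 weeks. At 5 weeks Fzd10, a Wnt receptor gene, rose by 1.20 (adjusted p = 0.0311), from 2.65 and 3.20 CPM to 6.81 and 6.59, and was at 3.71 and 3.96 at 7 weeks. The Ptgds call was lost without either uninjured or either 7 week library (adjusted p from 0.137 to 1), and that of Fzd10 without either uninjured library or the female 5 week one (from 0.0618 to 0.521). Mfap1a, a spliceosome gene, fell by 0.63 at 5 weeks (edgeR, adjusted p = 0.022), from 33.3 and 40.3 CPM to 24.1 and 23.4. At 7 weeks it was at 36.6 and 33.9 CPM. Without the male uninjured library its 5 week difference was -0.45 and was not called. Between 7 and 5 weeks themselves 8 genes were called (0.0488%), 4 each way (0.0244% higher and 0.0244% lower), or 9 higher and 5 lower with the GC offset, Coq8a and Pagr1a among them.

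The dorsal horn peptides were examined next. They were taken up knowing that many were high in these same 3 week libraries, so counts over the list describe it and are not independent evidence of its direction. Late libraries were compared with the 2 Input libraries at 3 weeks, and edgeR called 57 of 16803 genes (0.339%), 24 higher (0.143%) and 33 lower (0.196%). Peptide and injury genes were prominent among the lower ones: 9 of 23 dorsal horn neuropeptide genes and 8 of 28 nerve injury genes fell, and none of either list rose. Gal, Npy, Crh and Adcyap1 stand in both lists. The medians were -0.46 for the peptides, with 21 of 23 lower, and -0.08 for the injury genes, with 18 of 28 lower, against 0.01 for all genes. The fit with GC content as an offset was not run against 3 weeks. In the class lowest in GC the male 3 week library was at -0.45, the lowest of all Input libraries. Without the male 3 week library 5 peptide and 4 injury genes were called.

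Penk, the enkephalin precursor, was at 203 and 264 CPM at 3 weeks, 124 and 167 at 5 weeks, and 122 and 144 at 7 weeks, beside 105 and 144 without injury. The 4 late libraries were below both 3 week ones and overlapped the uninjured ones. Penk fell by 0.75 ± 0.0527 from 3 weeks (edgeR, adjusted p = 1.3e-06), and stood at 0.16 against uninjured (adjusted p = 0.538). The other opioid precursors went with it, Pdyn (dynorphin) falling by 1.18, from 48.1 and 51.1 CPM to 19.0, 27.9, 22.2 and 18.8, and Pnoc (nociceptin) falling by 0.69.

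Vgf, a secreted precursor induced by nerve growth factor, was the 1 gene of the peptide and injury genes described here that was also called against uninjured. It was at 190 and 200 CPM without injury, 357 and 423 at 3 weeks, 229 and 290 at 5 weeks, and 227 and 258 at 7 weeks. Every late library lay between the uninjured and the 3 week levels. Vgf fell by 0.64 ± 0.0517 from 3 weeks (edgeR, adjusted p = 5.37e-06) and was above uninjured by 0.36 ± 0.0598 (adjusted p = 0.0215), called at 5 weeks (0.40) and not at 7 weeks (0.31, adjusted p = 0.0612). Without the female uninjured library that difference was 0.46 and without the male one 0.26, and neither was called (adjusted p = 0.113 and 0.445).

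Gal, the galanin gene, was at 14.1 and 19.6 CPM at 3 weeks, 5.05 and 8.77 at 5 weeks, and 5.12 and 6.95 at 7 weeks, with 4.05 and 5.24 without injury. It fell by 1.39 ± 0.125 from 3 weeks (edgeR, adjusted p = 1.72e-05). Crh, corticotropin-releasing hormone, fell by 1.96 from a mean of 5.31 CPM to 1.37. Tac1, which encodes substance P, fell by 0.81 from 45.5 and 40.2 CPM to between 23.1 and 27.0, Npy by 0.74, Adcyap1 (PACAP) by 0.58 and the granin Scg2 by 0.46. Sst, the somatostatin gene whose cAMP response element is shown above, fell by 0.31 (adjusted p = 0.0227), from 96.6 and 116 CPM to 78.8 and 106 at 5 weeks and 73.4 and 85.9 at 7 weeks. The call on Sst was lost without the female 3 week, male 3 week, female 5 week or male 7 week library, with adjusted p between 0.0873 and 0.206.

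Genes of the neuronal injury response followed. Sprr1a, a protein of regrowing axons, had 65 and 99 counts at 3 weeks and 2, 1, 2 and 9 in the late libraries, and fell by 4.50 ± 0.44 (edgeR, adjusted p = 1.72e-05). Atf3, the stress factor of injured neurons, was at 1.69 and 4.73 CPM at 3 weeks and at 0.394 to 1.41 late, and fell by 2.15 ± 0.311 (adjusted p = 0.00293). Without the male 3 week library Atf3 was at -1.77 and not called (adjusted p = 0.361), and without the male 5 week library at -1.88 (0.0904). Ecel1, an endopeptidase gene induced by nerve injury, fell by 0.56 and Gap43, the growth cone protein, by 0.30. Alk, a receptor kinase, fell by 0.90, from 27.6 and 25.3 CPM to between 13.6 and 14.8.

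Set against uninjured, the genes of the peptide list, which does not hold Vgf, were slightly higher as a list and none was called. Of 23 tested peptide genes 19 were above 0, with medians of 0.22 over both times, 0.22 at 5 weeks and 0.16 at 7 weeks, beside -0.005 for all genes, and 5 had an unadjusted p under 0.05 (DESeq2 called 0). Leaving out single libraries kept 16 to 20 of 23 above 0, with medians of 0.12 to 0.20. Sst at 0.28 had the smallest p (adjusted p = 0.274), and Gal stood at 0.47 (adjusted p = 0.522). Receptors for these peptides and other pain-related receptors had a median of 0.02 against uninjured over 28 genes.

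**Figure D5:**
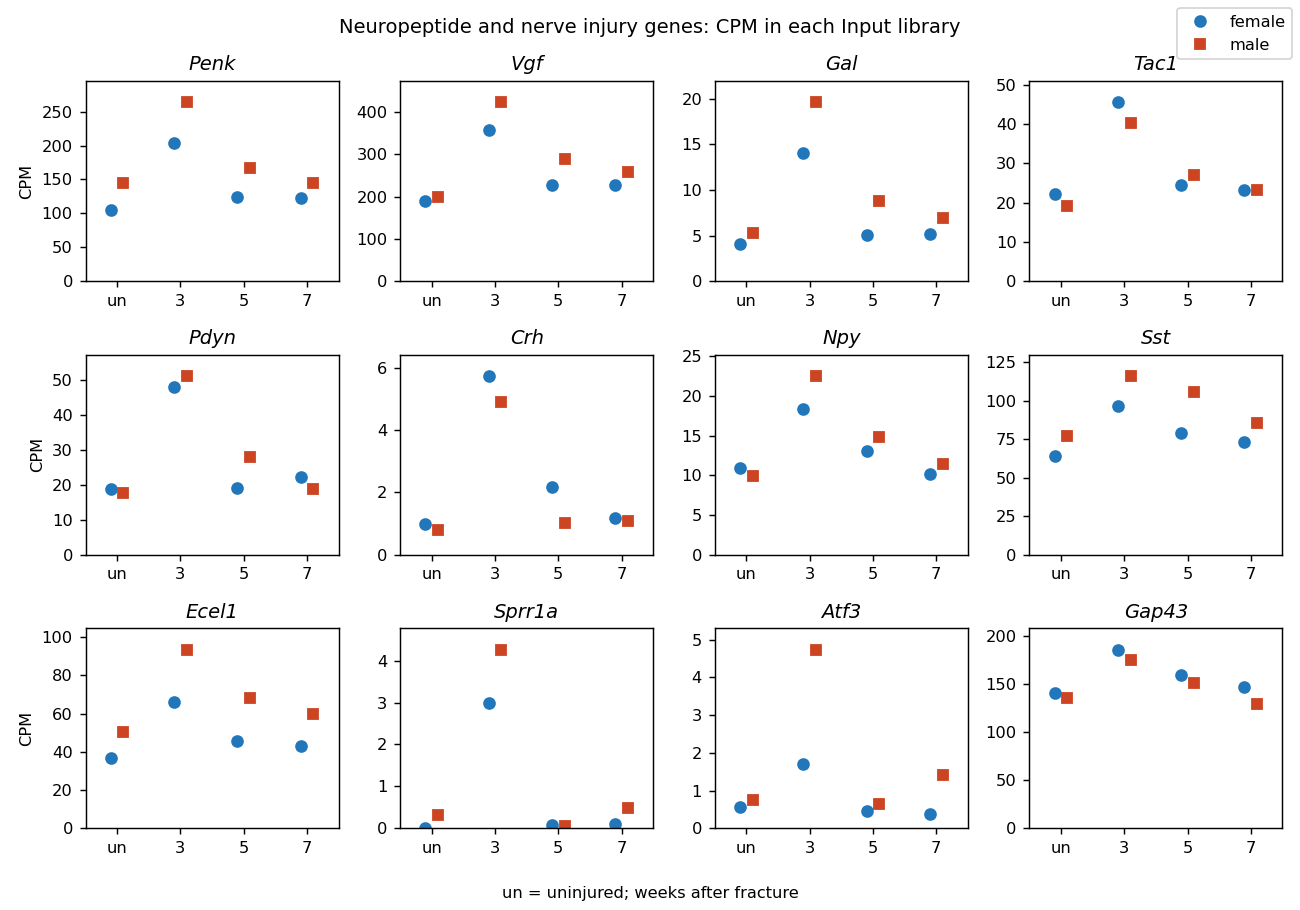
CPM (vertical axes, from 0) of 12 neuropeptide and nerve injury genes in each Input library by state (horizontal axes). Most are highest at 3 weeks, as Penk with 203 and 264 CPM, and the late libraries lie near the uninjured ones.

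The genes that rose from 3 weeks were of other kinds. Gpr17, a receptor of differentiating oligodendrocyte precursors, rose by 0.55 ± 0.0822 (edgeR, adjusted p = 0.00473), from 46.0 and 36.6 CPM to between 49.2 and 66.6. The uninjured libraries held 91.0 and 61.6 CPM. The astrocyte connexin Gjb6 rose by 0.36 and the glial connexin Gjc3 by 0.33, and Cdh19, a cadherin of glia, by 0.62, each with a late mean below the uninjured mean. Tmem160 rose by 0.65 from 3 weeks, where it was at 17.2 and 20.1 CPM. Of the 6 fits that left out 1 library each, Gpr17 and Tmem160 stayed called in 4, Gjc3 in 3, and Gjb6 and Cdh19 in 1, the fit without the female 7 week library. Without the female and without the male 3 week library none of these 5 was called.

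Glucocorticoid-responsive genes were lower late than without injury as a list, with no member called by edgeR. Of 20 genes 17 were below 0, with a median of -0.31 (-0.32 at 5 weeks and -0.32 at 7 weeks), 9 had an unadjusted p under 0.05, 7 did not overlap between the groups (3.91% of all genes were lower without overlap), and DESeq2 called 1. Sgk1, a kinase whose start site is shown above, was at 206 and 123 CPM without injury, 63.2 and 85.4 at 5 weeks, and 73.3 and 105 at 7 weeks. The difference was -1.01 ± 0.357 (edgeR, adjusted p = 0.683). Zbtb16 was at 68.4 and 24.5 CPM without injury and at 16.1 to 22.2 late, Fkbp5, a co-chaperone of the receptor, at 98.3 and 59.1 and then 55.8 to 62.2, and the lipid droplet gene Plin4 at 85.7 and 36.5 and then 30.9 to 40.9.

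In each of these 4 genes the female uninjured library was the highest of the 6. Tsc22d3 differed in this, at 224 and 219 CPM without injury and 159, 204, 176 and 194 late, a difference of -0.28 (edgeR, adjusted p = 0.174). Without the female uninjured library 13 of 20 genes were lower and the median was -0.04, and without the male uninjured library 19 of 20 were lower with a median of -0.55. At 3 weeks the summed level of the list was 1101 to 1125 CPM, below the 1281 to 1354 of the late libraries, and the uninjured libraries held 1387 and 1903 CPM.

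Heat shock, cholesterol and microglia lists also moved when the female uninjured library was left out. Heat shock genes had 18 of 21 below 0, with a median of -0.09 and 6 at an unadjusted p under 0.05, and 14 of 21 (median -0.03) without the female uninjured library. Genes of the unfolded protein response had 18 of 23 below 0 (median -0.05, and -0.08 without that library). Cholesterol synthesis and transport genes had 22 of 26 above 0, with a median of 0.09 and 7 at an unadjusted p under 0.05, led by the sterol sensor Insig1 at 0.23 (edgeR, adjusted p = 0.185) and the mevalonate enzymes Mvd at 0.31 and Mvk at 0.29. Without that library 15 of 26 were above 0 and the median was 0.04. Of 19 microglia genes 18 were above 0 (median 0.07) and 5 of 19 without it (median -0.04). Against 3 weeks all 19 microglia genes were lower, with a median of -0.18, and edgeR called 0 of them.

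Several other cell type lists had medians within 0.05 of that of all genes. These were -0.01 over 20 neuron genes, 0.00 over 20 astrocyte genes and -0.05 over 18 oligodendrocyte genes. Also within it were 0.01 over 14 oligodendrocyte precursor genes, -0.03 over 14 endothelial genes and 0.04 over 18 mural and meningeal fibroblast genes. In each of these lists edgeR made 0 calls. At an unadjusted p under 0.05 these lists held 1, 4, 5, 3, 1 and 1 genes, in that order. Medians were farther off in lists with fewer tested genes, at 0.31 over 6 primary afferent genes (6 above 0), 0.23 over 12 Schwann cell genes (8 above 0) and 0.16 over 10 ependymal genes (8 above 0), with no call. Without the female uninjured library the Schwann cell median was 0.02 and the ependymal one -0.01. Motor neuron genes had 13 of 20 below 0 and a median of -0.10, and 9 of 20 below 0 with a median of 0.06 without that library. Among them Chat, the acetylcholine enzyme of motor neurons, was at 47.5 and 42.9 CPM without injury and 32 to 39.4 late, without overlap, at -0.35 (adjusted p = 0.199). Of 24 tested genes of the pan-reactive astrocyte list 15 were above 0 (median 0.05), with the intermediate filament gene Vim at 0.22 and Gfap at 0.03. Of the 15 primary afferent genes on the list, those 6 passed the filter on low counts. Rpl22, the gene carrying the tag, was at 47.0 to 49.4 CPM in all 6 libraries.

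The last comparison asked whether the late difference was different in Input than in the astrocyte pull-down, over 6 Input and 18 Trap libraries. edgeR called 1 of 17268 genes (0.00579%), the low-count Gp1bb, which was at 5.96 ± 0.928 (adjusted p = 0.00441). It was at 0.186 to 1.87 CPM in uninjured and 0 to 0.41 in late Trap libraries, and without the male uninjured Input library the difference was 4.89 and not called (adjusted p = 0.626). For Vgf the late difference was 0.36 in Input and 0.13 in Trap, with a difference of 0.22 ± 0.268 between them (adjusted p = 1). For Tns3 the difference was -0.33 in Input and -0.13 in Trap. Whether Input and Trap libraries share animals is not in the labels.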

How the data were processed

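RNA of homogenised lumbar cord was sequenced after poly-A selection, per the labels' protocols. The authors deposited RSEM expected counts per gene, with 7.98% to 8.53% of values not whole in the 6 libraries. FastQC, Trim Galore, STAR and RSEM with GRCm38 are named in the submitters' processing notes, versions not given in the sources used here. Expected counts were rounded here. RSEM shares reads among similar genes, so near copies are uncertain, and strand use in counting is not given in the sources used here. Of 55938 identifiers 55141 had a symbol, and the 797 others took 0.292% of Input counts. Coordinates and GC content are those of GENCODE genes of GRCm38, matched without the identifier's version.

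edgeR 4.0.16 (R 4.3.3; filterByExpr, TMM, glmQLFit with robust estimation, quasi-likelihood F test, 2-sided) was fitted with sex as an additive term, leaving 3 residual degrees of freedom for late against uninjured and 2 for the times apart. Benjamini-Hochberg adjustment ran over all genes tested, and a call is an adjusted p under 0.05. CPM are TMM-scaled over the 8 Input libraries. Intervals from counting alone are wide for genes below 1 CPM. The fit was tested on simulated data. Genes were named by a rule: up to 12 called each way with a mean of at least 1 CPM, filled by smallest p, up to 5 each way in other comparisons, up to 4 called or 2 uncalled from each of 40 lists, and a panel, leaving out predicted models. Genes called at 7 weeks or against 3 weeks beyond that rule, and list members given as values, were named after their values were seen. The members and lists were chosen with earlier results of these data known. Results of some genes are not reported here. Alternatives were DESeq2 1.42.0 and its size factors, other filters, fits and terms, GC content as an offset (added after seeing the data) and leaving out each library. The GC offset was not run against 3 weeks or between Input and Trap.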

Additional observations from a re-analysis of the deposited data

Results flagged for a closer look

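In 10 of 121 genes looked at, 9 of them given here, 1 of the 4 late libraries lay far from the other 3, by a gap over range (Dixon's ratio) above the 95% limit for 4 values. Chance gives this in about 1 of 20 groups. Cfb, C1ql1 and Pou3f1 were looked at as members of lists. The female library at 7 weeks was high for Bcl6 (0.973) and the complement gene Cfb (0.85), and low for Gp1bb (0.886), C1ql1 (0.865) and Inafm1 (0.849). The male library at 7 weeks was high for Arf6 (0.996) and the predicted gene Gm42791 (1). Crh was high in the female library at 5 weeks (0.872), and the myelin regulator Pou3f1 was low in the male library at 5 weeks (0.864).

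Between 7 and 5 weeks 8 genes differed by edgeR's test of that difference. Coq8a was at -1.26. Pagr1a was at -5.96, with 98 and 366 counts at 5 weeks against 0 and 7 at 7 weeks, and its exons overlap Gm42742 and Pagr1b. The model ENSMUSG00000116207.1, which overlaps Nnt, was at -9.95, with 177 and 79 counts at 5 weeks and 0 in every other Input library. Gm16867 was at 9.84, with 100 and 109 counts at 7 weeks and 0 at 5 weeks. The predicted genes Gm45140, Gm27177 and Gm29609 were at 4.79, 2.88 and -3.85. Exons of Gm16867 overlap Entpd4 (71.7 CPM) and those of Gm27177 overlap Entpd4b (57.9 CPM), both on the other strand. Exons of Gm45140 overlap Isy1 and Rab43 and those of Gm29609 overlap Gtf3c2 and Mpv17, on the same strand. Reads of these models are therefore uncertain too. Values of genes with 0 counts on 1 side depend on the prior count and are no bound.

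Between the fractions, the late difference of Gp1bb was larger in Input by 5.96, as given in the report.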

How the results depend on the processing

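No named gene called in a comparison changed direction there under the alternatives run. Genes that were not called were not checked for this. Several list medians changed sign, and the balance of calls moved. Without the female uninjured library the median turned from 0.07 to -0.04 for microglia, from -0.04 to 0.10 for immediate early genes, from -0.10 to 0.06 for motor neuron genes, from -0.03 to 0.14 for endothelial genes and from 0.07 to -0.21 for blood cell genes (6 genes). With the GC offset that of mitochondrially encoded genes turned from -0.04 to 0.04. The 15 higher and 2 lower late calls became 6 higher and 33 lower without the male uninjured library. Among the Input libraries no paired analysis was possible because each carries the number 1, and sex stands as the additive term. Each Input library has a Trap library of its sex, state and number. The fit of Input against Trap did not use this possible pairing.

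For late against uninjured (17 calls), DESeq2 called 36, all 8 Input libraries in the fit 33, a mean per state 33, and the fit without the sex term 0 (299 genes at an unadjusted p under 0.05). At 5 weeks (20 calls) the fit with no filter on low counts called 4. Between 7 and 5 weeks (8 calls) DESeq2 called 4 and the GC offset 14. Leaving out each library in turn gave 6 to 231 calls for late against uninjured, 15 to 212 at 5 weeks, 22 to 181 at 7 weeks, 14 to 204 between the times, 21 to 196 against 3 weeks, and 0 to 1 between Input and Trap, where the 0 came without the male uninjured library and 431 genes had an unadjusted p under 0.05. At 5 weeks the count was 212 without the female 5 week library, 130 without the male one, 81 without the male 7 week, 41 without the female 7 week and 44 without the male uninjured library. At 7 weeks it was 181 without the male and 179 without the female 5 week library, and 22 without the female uninjured one. Between the times it was 204 without the female 5 week library and 14 to 39 without each of the others. Against 3 weeks it was 196 without the female 7 week library and 21 to 35 without each of the others. The cause was not tested. A fit without 1 uninjured library has a single uninjured library, assumed to vary like the others. The remaining counts moved by at most 1.5 times. In simulated late against uninjured data of 16399 genes, 89.5% of 200 genes changed by 0.5 on the log2 scale were recovered. Beside them 13 unchanged genes were called. At a change of 1 on the log2 scale 22 unchanged genes were called beside 199 recovered, and at a change of 2 there were 8 beside 200. The changed genes were drawn only from those above a floor of expression. The simulated libraries held no sex or GC difference, so the share recovered does not carry over to the real libraries.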
